A study of Mus musculus with 25 samples.

Results

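Keratin genes and the gene of a secreted epidermal protein were followed across 25 RNA-seq libraries of mouse Achilles tendon. The 6 genes are Krt80, Krt5, Krt14, Krt8, Krt18 and Sbsn. They are 6 of the 55487 genes in the count table, and were taken by symbol. They had been chosen by their measured levels in runners against cage controls in these same libraries. Their running differences are therefore a description: where members called are counted, the count stands beside the share of all genes called, and nothing is read from it.

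All tendons came from mice aged 3 months. The animals were wild type (WT) or AMPKcKO, a conditional knock-out of AMPKα1, a catalytic subunit of an energy-sensing kinase, written cKO here. They lived with cage activity or ran on wheels. There were 4 female and 3 male libraries of WT cage mice. Each of the other groups (WT running, cKO cage, cKO running) had 3 of either sex. The strain, the cell type or promoter that drives the Cre recombinase, and the distance run are not given in the sources used here. Each library is taken as a separate sample, although nothing states that each came from a separate animal, so p-values measure the spread between these samples. The library names of WT cage female 4 and cKO cage male 3 carry another prefix than all the others. What the prefix stands for is not stated, and no runner has it.

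Library totals ran from 13193228 to 45724243 counts, with a median of 24538109. A count of 0 then allowed a level of up to 0.0656 CPM (counts scaled to the library total) in the deepest library and 0.227 CPM in the shallowest, taking 3 counts as the limit and counting error only. The library labelled cKO cage female 3 had 0 Cre counts, against its label. WT running male 2 had 0 Cre counts, as its label has it, and 119 CPM of the eGFP reporter entry, while the other WT libraries had at most 1 eGFP count. In cKO, eGFP stood at 84.3 to 264 CPM in all 6 running libraries, and at 0 to 2.60 CPM in 4 of the 6 cage libraries. WT cage female 1 and cKO running male 2 stood apart in the skin keratins described below. All 9 tendon markers, Scx, Mkx, Tnmd, Col1a1, Col1a2, Fmod, Thbs4, Kera and Comp, were tested, and their summed level was 5000 to 24540 CPM, while 15 skeletal muscle markers summed to 10900 to 100500 CPM, so the libraries held muscle RNA too.

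Keratins are the intermediate filament proteins of epithelial cells. A type I keratin pairs with a type II keratin: Krt14 with Krt5 in the basal layer of the epidermis, and Krt18 with Krt8 in simple, single-layered epithelia. Krt80 is a type II keratin found near the cell edge at cell junctions of differentiating epithelia, and Sbsn encodes suprabasin, a secreted protein of the upper epidermis. None of these genes is a usual marker of the tendon cell.

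In the GENCODE annotation of GRCm38, 4 of the 6 genes lie on chromosome 15. Krt80 (ENSMUSG00000037185) spans 101347444 to 101370162 on the minus strand, and Krt5 (ENSMUSG00000061527) spans 101707070 to 101712898 on the same strand, 336907 bases away. Krt8 (ENSMUSG00000049382) spans 101996698 to 102004482 on the minus strand, and Krt18 (ENSMUSG00000023043) spans 102028180 to 102032027 on the plus strand, 23697 bases from Krt8. Krt14 (ENSMUSG00000045545) lies on chromosome 11, 100203162 to 100207548, minus strand. Sbsn (ENSMUSG00000046056) lies on chromosome 7, 30751471 to 30756134, plus strand.

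The RefSeq promoter table (GRCm38.p6), with 250 bases before each start and 50 after, holds 5 of the 6 members. The windows of Sbsn, the secreted-protein gene described in runners, and of Krt5, the basal keratin seen in few libraries, are shown to 30 bases after the start, in the direction of transcription. Capitals mark matches to TGANTCA, the motif of AP-1 transcription factors, on either strand.
Sbsn, chr7:30751221-30751500, plus strand: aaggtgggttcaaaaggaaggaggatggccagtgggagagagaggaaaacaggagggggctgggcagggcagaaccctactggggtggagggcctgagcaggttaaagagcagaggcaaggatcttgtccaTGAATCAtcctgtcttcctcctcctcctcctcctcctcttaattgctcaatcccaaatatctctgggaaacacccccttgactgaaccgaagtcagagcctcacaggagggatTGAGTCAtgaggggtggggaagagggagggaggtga
Krt5, chr15:101712876-101713155, minus strand: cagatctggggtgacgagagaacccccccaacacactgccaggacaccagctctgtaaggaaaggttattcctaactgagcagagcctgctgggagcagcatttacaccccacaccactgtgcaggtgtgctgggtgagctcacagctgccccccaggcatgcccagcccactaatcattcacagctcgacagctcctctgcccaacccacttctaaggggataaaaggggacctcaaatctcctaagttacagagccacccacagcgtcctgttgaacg
The Sbsn window held 2 matches, TGAATCA beginning 119 bases before the start and TGAGTCA beginning 6 bases before it. TGANTCA occurs in 7.81% of the 32851 promoters of that table. The 300-base windows of Krt5, Krt14, Krt8 and Krt18 held none, and that of Krt14 lies inside the annotated gene. TATAAA, the TATA box, matched in Krt8 alone among the 5 and in 13.6% of all promoters. The Krt8 matches lay across the listed start, TATAAA beginning 1 base before it and TTTATA, the match on the other strand, beginning 3 bases before it. GGGCGG (the GC box) and CACGTG (the E-box) matched in none of the 5 and in 35.7% and 7.15% of all. A match describes the letters and is not a binding site shown here.

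Only Krt80 and Sbsn among the 6 genes were counted in all 25 libraries. On the length-scaled FPKM scale, the median level over the 25 libraries was 5.87 for Sbsn, 3.65 for Krt80, 0.12 for Krt18, 0.06 for Krt14, 0.01 for Krt5 and 0 for Krt8. The FPKM ranges of the neighbours in that order overlapped, at 1.41 to 18.99 for Sbsn and 2.62 to 9.34 for Krt80, and at 0 to 1.45 for Krt18 and 0 to 20.18 for Krt14. Krt18 never reached the lowest Krt80 level. Krt80, Sbsn and Krt14 passed the filter on low counts, and Krt5, Krt18 and Krt8 did not. Krt14 passed narrowly, through 6 libraries at or over the level the filter uses, against 4 for Krt18, 2 for Krt5 and 0 for Krt8.

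Krt80 was higher in most runners than in any cage library. Its level in WT cage females was 8.35, 9.56, 8.15 and 10.02 CPM, and in WT cage males 9.26, 9.39 and 7.79 CPM. WT running females had 15.4, 22.4 and 19.0 CPM, and WT running males 17.1, 17.7 and 18.8 CPM. Within WT the groups did not overlap, and all 6 runners lay above all 7 cage libraries. The cKO cage females had 7.19, 13.4 and 7.23 CPM of Krt80, and the males of that group 8.47, 10.9 and 8.14 CPM. The cKO running females had 15.2, 27.1 and 16.2 CPM, and the running males 9.56, 14.03 and 13.1 CPM. Within cKO the groups overlapped: 4 of 6 runners lay above every cKO cage library, and running males 1 and 3 did not. Over both genotypes, 10 of 12 runners lay above all 13 cage libraries.

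The mean level of Krt80 was 8.93 ± 0.833 CPM (SD, n = 7) in WT cage and 18.4 ± 2.35 (n = 6) in WT running libraries. In cKO it was 9.22 ± 2.44 CPM (n = 6) at cage activity and 15.9 ± 5.95 (n = 6) in runners. The fitted log2 fold change of running was 0.91 ± 0.12 (SE) as the mean of both genotypes, a fold of 1.88. It was 1.06 ± 0.17 in WT and 0.76 ± 0.18 in cKO. Without cKO cage female 3 and WT running male 2, the mean was 0.86 ± 0.13. Without WT cage female 1 and cKO running male 2, it was 0.90 ± 0.13. In females only the running value was 1.09 ± 0.25 in WT and 1.07 ± 0.27 in cKO. In males only it was 1.03 ± 0.18 in WT and 0.42 ± 0.18 in cKO. Whether running acted differently in the sexes was not tested. In whole tendon RNA, more cells of a type and more RNA per cell cannot be told apart.

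**Figure D1:**
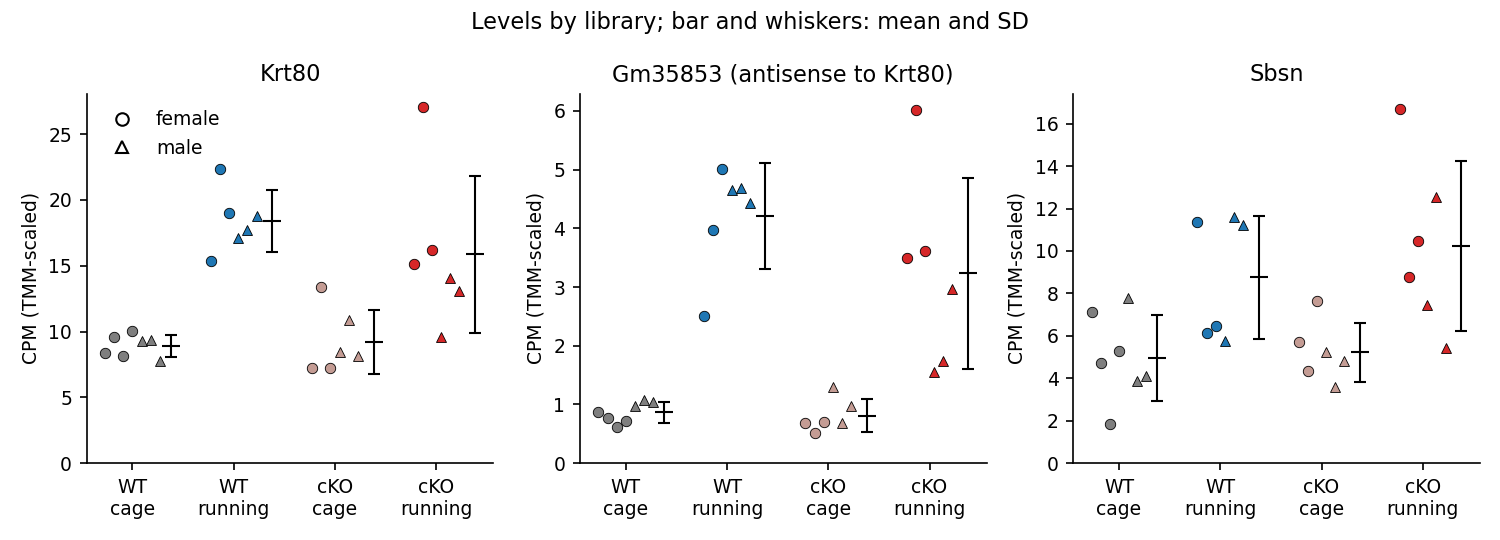
CPM (TMM-scaled, linear axes from 0) of Krt80, its antisense neighbour Gm35853 and Sbsn in each of the 25 libraries by genotype and activity, with circles for females, triangles for males and a bar with whiskers for the mean and SD. All 6 WT running libraries lie above every WT cage library for Krt80, and all 12 runners lie above every cage library for Gm35853, while the Sbsn groups overlap.

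Sbsn was higher in runners as well, with more overlap. Its level in WT cage females was 7.11, 4.72, 1.84 and 5.29 CPM, and in WT cage males 7.78, 3.86 and 4.13 CPM. In WT running females it was 11.4, 6.13 and 6.45 CPM, and in WT running males 5.78, 11.6 and 11.2 CPM. The WT runners fell into 3 libraries above every cage library and 3 within the cage range. The cKO cage females had 5.69, 4.36 and 7.63 CPM of Sbsn, and the males of that group 5.24, 3.58 and 4.81 CPM. The cKO running females had 16.7, 8.80 and 10.5 CPM, and the running males 7.45, 12.6 and 5.41 CPM. Running males 1 and 3 again lay within the cage range of their genotype, and 7 of the 12 runners lay above all 13 cage libraries.

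Group means of Sbsn were 4.96 ± 2.02 CPM (SD, n = 7) in WT cage and 8.76 ± 2.90 (n = 6) in WT running. They were 5.22 ± 1.39 (n = 6) in cKO cage and 10.2 ± 4.00 (n = 6) in cKO running. The fitted log2 fold change of running was 0.89 ± 0.20 (SE) as the mean of both genotypes, 0.82 ± 0.28 in WT and 0.97 ± 0.29 in cKO. Without cKO cage female 3 and WT running male 2 the mean was 0.90 ± 0.21, and without WT cage female 1 and cKO running male 2 it was 0.91 ± 0.21. Of the 3 members tested, edgeR's quasi-likelihood test called 2 (Krt80 and Sbsn) at an adjusted p under 0.05 for the running mean, where 1.43% of all 19155 genes tested were called. It called 1 (Krt80) in WT, where 0.131% were called, and 0 in cKO, where 0.0418% were called. Since the members were proposed from these contrasts, nothing is read from those counts.

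Genotype was not used to choose the members, so it was tested. At cage activity Krt80 had a log2 fold change (cKO over WT) of 0.06 ± 0.17 (SE), with a 95% interval of -0.29 to 0.41 (6 against 7 libraries, edgeR adjusted p = 0.99991). In runners it was -0.23 ± 0.17, with an interval of -0.59 to 0.13 (6 against 6, adjusted p = 0.585). As the mean of both activities it was -0.09 ± 0.12 (adjusted p = 0.981). Krt80 passed the test in none of the 3.

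For Sbsn the same log2 fold change was 0.06 ± 0.28 in cage mice, with a 95% interval of -0.52 to 0.64. It was 0.21 ± 0.29 in runners, with an interval of -0.38 to 0.80 (edgeR adjusted p = 0.774), and 0.14 ± 0.20 as the mean of both (adjusted p = 0.981). Whether running acted differently in the genotypes was examined by the interaction. It sets the running value in cKO against that in WT, the contrasts the members were proposed from. Its values are therefore a description, with p-values given for the record. For Krt80 this difference of log2 fold changes, cKO minus WT, was -0.30 ± 0.24, with an interval of -0.80 to 0.21 (adjusted p = 0.725). For Sbsn it was 0.15 ± 0.40, with an interval of -0.68 to 0.97 (adjusted p = 0.925). Neither passed, and the larger Krt80 value in WT than in cKO runners is not shown to be a difference between genotypes.

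Males and females were compared in the same fit. The log2 fold change of males against females was -0.20 ± 0.12 for Krt80 (12 against 13 libraries, edgeR adjusted p = 0.645) and -0.11 ± 0.20 for Sbsn (adjusted p = 0.917). Running females had 15.2 to 27.1 CPM of Krt80 and running males 9.56 to 18.8 CPM, and the ranges overlapped. Krt14 passed in none of these 5 comparisons either, at adjusted p-values of 0.99991 (genotype, cage mice), 0.563 (genotype, runners), 0.991 for their mean, 0.672 for the interaction and 0.967 for sex. The unadjusted p of its interaction was 0.0339, and its level there rests on few libraries. The edgeR test called 0 of the 3 tested members in each of the 5. DESeq2 and limma-voom called neither Krt80 nor Sbsn in any of them. Krt14 did not get a value in every alternative fit: for genotype at cage activity it had 42 values of 46, none called. Among all genes, edgeR called 0% for genotype at cage activity, in runners and for the interaction, 0.00522% for the genotype mean and 0.616% for sex. At an unadjusted p under 0.05 it passed 217, 2173 and 1377 genes in the first 3 of those.

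**Figure D2:**
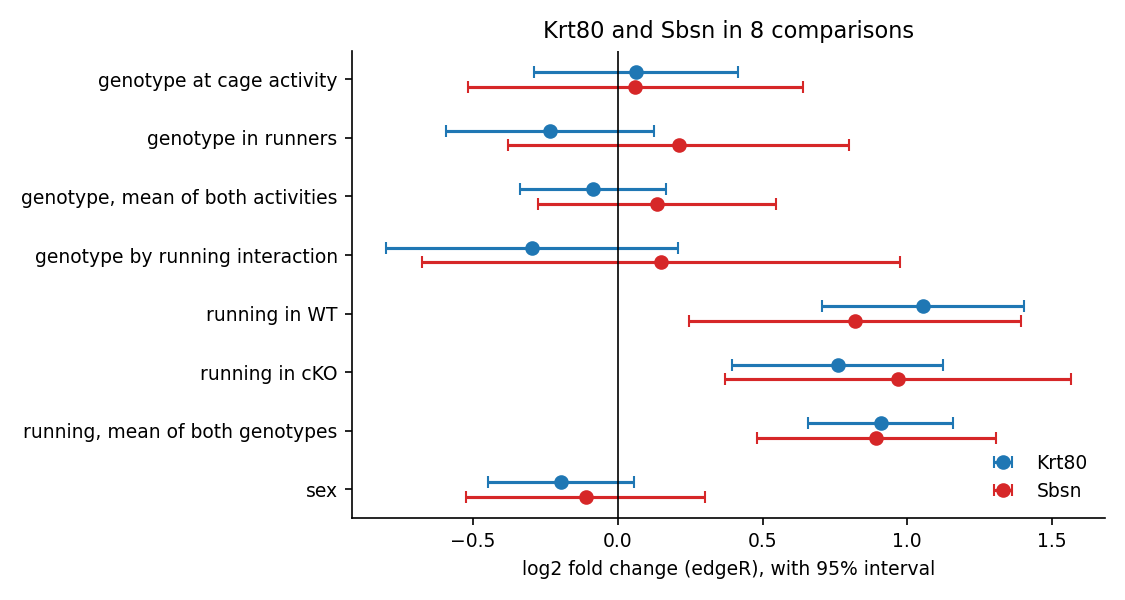
Fitted log2 fold change with its 95% interval for Krt80 and Sbsn in the 8 comparisons (cKO against WT, running against cage, males against females), on a linear axis. The genotype, interaction and sex values lie across 0, from -0.30 to 0.21. The running values, from 0.76 to 1.06, belong to the contrasts the members were proposed from and are a description. The interaction is built from those in WT and in cKO, and is a description too.

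Krt80 shares its place on the chromosome with a gene on the opposite strand. Gm35853 (ENSMUSG00000116114) is annotated as antisense, chromosome 15, 101322888 to 101405834, plus strand, and spans the whole of Krt80. Their exons share 263 bases, which are 4.11% of the 6393 exon bases of Krt80 and 7.43% of the 3542 of Gm35853. The strand of the libraries is not stated, so reads from the shared bases cannot be told apart. Gm35853 is no member and was singled out after its values were seen.

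In cage libraries Gm35853 stood at 0.515 to 1.29 CPM, with a median of 0.775. In runners it stood at 1.55 to 6.02 CPM, with a median of 3.79, and all 12 lay above every cage library. Its log2 fold change of running was 2.13 ± 0.21 (SE) as the mean of both genotypes, 2.26 ± 0.29 in WT and 2.00 ± 0.31 in cKO, given as a description with no test. Across the 25 libraries its log2 CPM followed that of Krt80 with r = 0.865, given as a description, since both genes share bases, libraries and the running contrast. For genotype, the interaction and sex it passed in none (adjusted p from 0.593 to 0.99991). The other neighbours had few reads: Tmem147os, on the same strand as Sbsn, had 17 counts in all, and Gm36026, which overlaps Krt8 on the other strand, had 9.

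The basal pair Krt5 and Krt14 was near 0 in most libraries and high in the same 2. Krt5 stood at 16.8 CPM (729 counts) in cKO running male 2 and at 3.27 CPM (185 counts) in WT cage female 1, and at no more than 0.196 CPM (5 counts) in the other 23. It had 0 counts in 12 of the 25. Krt14 stood at 21.0 CPM (910 counts) and 2.97 CPM (168 counts) in the same 2 libraries. It reached 1.53 CPM (50 counts) in WT running female 2 and 0.680 CPM (19 counts) in cKO cage male 2, and had 0 counts in 11 of the 25. The 5 other cKO runners had 0 to 0.160 CPM of Krt5 and 0 to 0.518 CPM of Krt14. Group medians of Krt5 were 0 CPM in WT cage, 0.0721 in WT running, 0.0135 in cKO cage and 0.0177 in cKO running, so no group was high as a whole. The log2 CPM of the pair had r = 0.826 over the 25 libraries and r = 0.39 over the 23 without those 2.

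The simple-epithelium pair was low too. Krt8 had 0 counts in 21 of the 25 libraries. Its highest level was 0.208 CPM (9 counts) in cKO running male 2, and every other library had at most 2 counts. Krt18 was counted in 19 libraries, with a median of 0.155 CPM over the 25. It was highest in WT cage female 1, at 1.36 CPM (77 counts), and in cKO running male 2, at 0.994 CPM (43 counts). Elsewhere it stood at 0.774 CPM (21 counts) or less. Group medians of Krt18 were 0.129 CPM in WT cage, 0.0828 in WT running, 0.167 in cKO cage and 0.230 in cKO running, and the ranges of the 4 groups overlapped. WT cage female 1, with the most Krt18, had 0 counts of Krt8.

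**Figure D3:**
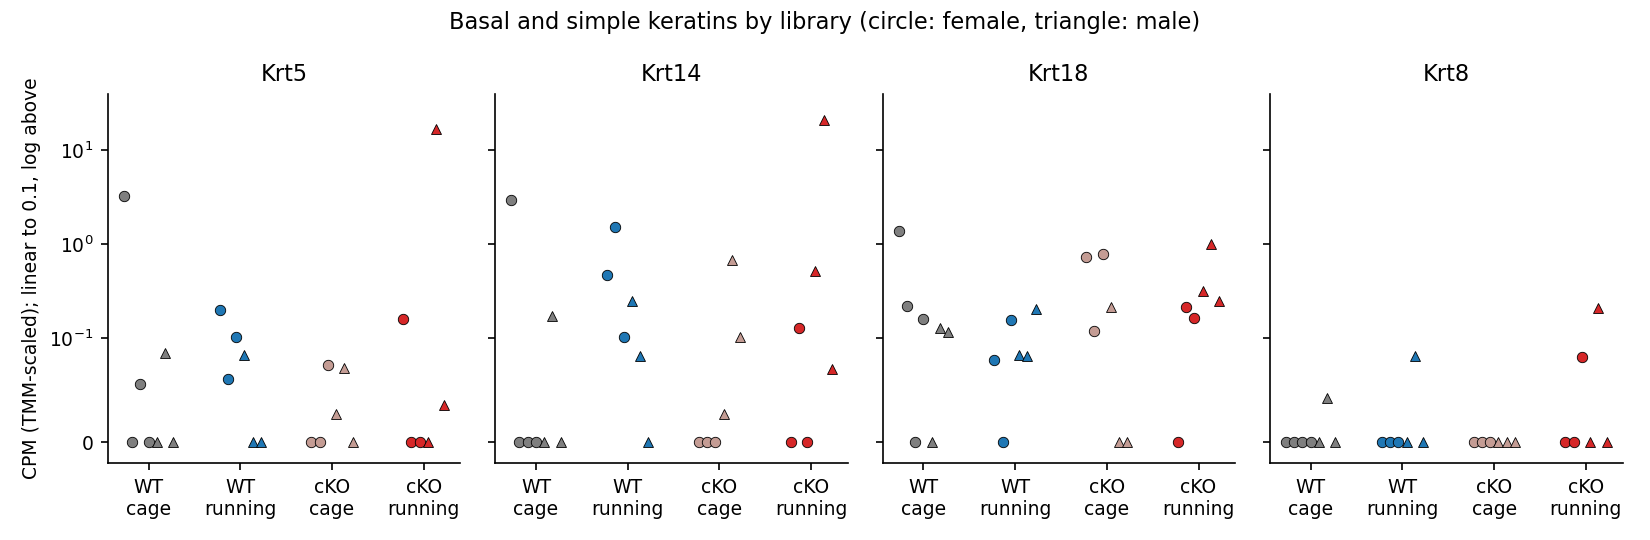
CPM of Krt5, Krt14, Krt18 and Krt8 in each of the 25 libraries by genotype and activity, on an axis that is linear up to 0.1 and logarithmic above. The highest points of Krt5 and Krt14, at 16.8 and 21.0 CPM, are the same cKO running male library, and most other points lie below 1 CPM.

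Keratins outside the list were high in cKO running male 2 as well. Of the 54 keratin genes in the table, 12 had a mean of at least 0.5 CPM, and 9 of these were highest in cKO running male 2. In 7 of the 12, that library held more than 50% of the level summed over all 25. Krt71, Krt25 and Krt27, keratins of the hair follicle's inner root sheath, stood there at 56.5, 36.2 and 29.7 CPM, and at no more than 0.0797, 0.155 and 0.203 CPM in any other library. Krt86, a hair shaft keratin, stood at 12.6 CPM there and at most at 0.154 CPM elsewhere. Krt10, a type I keratin of the suprabasal epidermis, stood at 26.6 CPM there and 9.32 CPM in WT cage female 1, and Krt2 at 19.2 and 3.94 CPM. Krt79, of the follicle's upper part, stood at 6.35 CPM there and at most at 1.42 CPM elsewhere. WT cage female 1 had 0 CPM of Krt71, Krt25, Krt27 and Krt86.

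The level of Krt80 in those 2 libraries did not stand apart. It was 14.03 CPM in cKO running male 2, within the 9.56 to 27.1 CPM of its group, and 8.35 CPM in WT cage female 1, within 7.79 to 10.02 CPM. Krt80 had the highest mean of the 54 keratins, 12.9 CPM, and its highest library held 8.37% of its summed level, against 99.6% for Krt71. Krt222 was the next by mean, at 0.624 to 10.9 CPM. Krt19, a keratin of simple epithelia and mesothelium, ranged from 0 to 2.91 CPM.

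**Figure D4:**
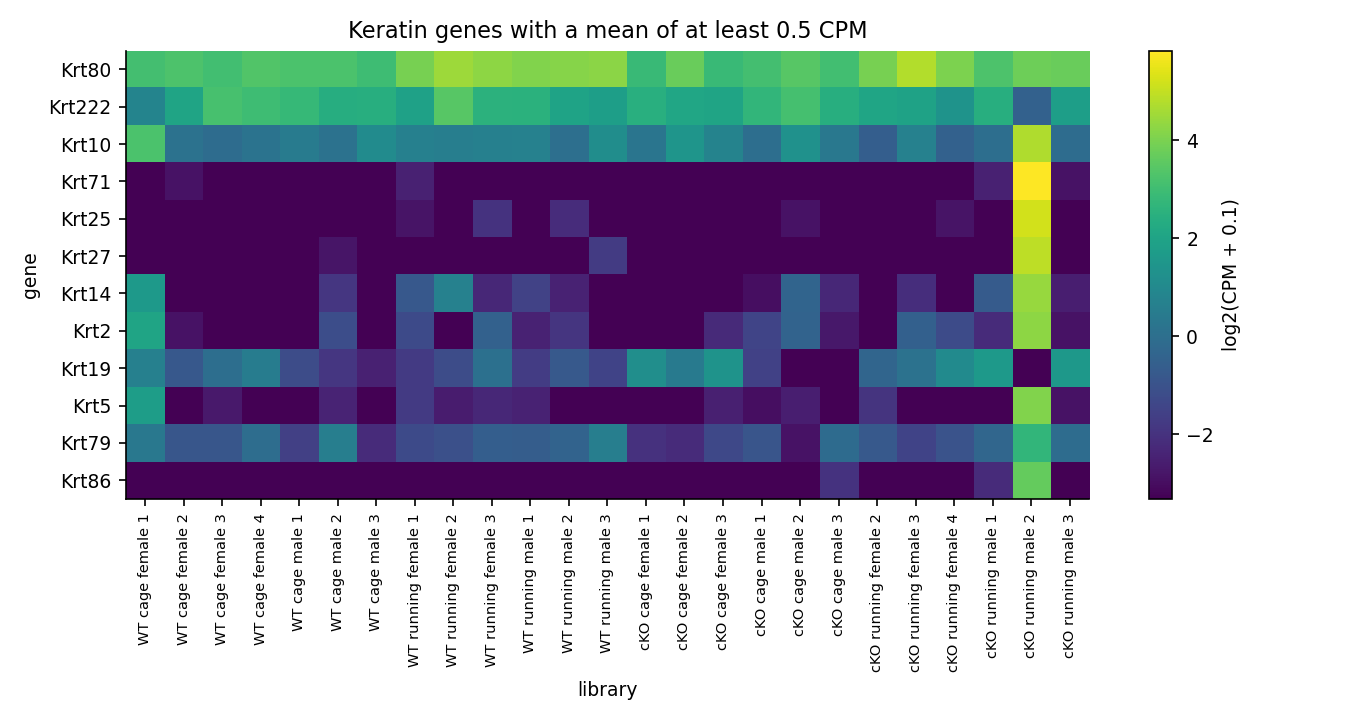
log2(CPM + 0.1) of the 12 keratin genes with a mean of at least 0.5 CPM (rows) in the 25 libraries (columns). Krt80 is present throughout and brighter in runners, while Krt71, Krt25, Krt27 and Krt86 are bright in cKO running male 2 alone, where Krt71 reached 56.5 CPM.

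Markers of epidermis other than the members were summed per library as a measure of epidermal transcripts (Krt1, Krt10, Krt15, Krt17, Krtdap, Dmkn, Lor, Ivl, Sfn, Perp, Trp63, Dsc3, Dsg3, Pkp1, Col17a1, Cdh1, Epcam, Ly6d, Lypd3 and Fxyd3). The 20 markers summed to 15.5 to 34.1 CPM in WT cage, 19.4 to 31.3 in WT running, 14.8 to 19.8 in cKO cage and 18.8 to 87.2 in cKO running. The highest library, cKO running male 2, had 87.2 CPM, and the other 5 of its group had 18.8 to 28.9. In 11 of the 20 markers that library was the highest of all. By median level Trp63 weighed most in the sum, at 7.72 CPM against 19.8 CPM for the sum over all libraries. It was low where skin keratins were high, at 4.00 CPM in cKO running male 2 and 3.38 CPM in WT cage female 1. The sum, and the values drawn from it below, therefore partly follow Trp63. Among defining markers, Krt15 had 0 counts in 16 libraries, Dsg3 in 15, Lor in 10 and Krt1 in 9.

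The mean log2 of the summed epidermis markers was higher in runners by 0.38 (two-sided permutation test, 12 against 13 libraries, p = 0.0467, adjusted over 3 comparisons 0.14). It differed by -0.06 between cKO and WT (adjusted p = 0.835) and by 0.08 between males and females (adjusted p = 0.835). None passed after adjustment. Krt80 followed the summed log2 level with r = 0.233 over the 25 libraries, given as a description. Within groups, here and below once the group means and the sex difference were removed, r was -0.071. With the mean level of these markers in the fit, the running log2 fold change of Krt80 was 0.93 ± 0.13 and that of Sbsn was 0.76 ± 0.20. Of the 11 epidermis markers tested for running, edgeR called 0, with a median log2 fold change of 0.36 against 0.01 over all genes. In WT 6 were above 0 and 5 below, with a median of 0.005. In cKO, the group with cKO running male 2, all 11 were above 0, with a median of 0.99.

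Sbsn levels followed those of markers of the tendon sheath and synovial lining. That list (Prg4, Tspan15, Pi16, Dpp4, Clu, Htra4, Tppp3 and Hbegf) summed to 542.4 to 1640 CPM in WT cage, 901.7 to 3829 in WT running, 661.7 to 1931 in cKO cage and 1077 to 4088 in cKO running. None of the 8 was at 0 in every library. The highest sum, 4088 CPM, was in cKO running female 2, where Sbsn was also highest at 16.7 CPM, and the lowest, 542.4 CPM, was in a WT cage library. The library next in Sbsn, cKO running male 2 at 12.6 CPM, had a sum of 1103 CPM. Sbsn followed the list with r = 0.77 over the 25 libraries and r = 0.74 within groups, and followed 8 macrophage markers with r = 0.736 and 0.609. With the tendon markers r was 0.319 and, within groups, 0.569. With the skeletal muscle markers it was -0.4 and -0.416, so the link was not particular to the sheath list. For Krt80 and the sheath list r was 0.419 and, within groups, -0.113. These values describe libraries that share depth and composition, and the part of these cells in the Sbsn result was not tested.

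**Figure D5:**
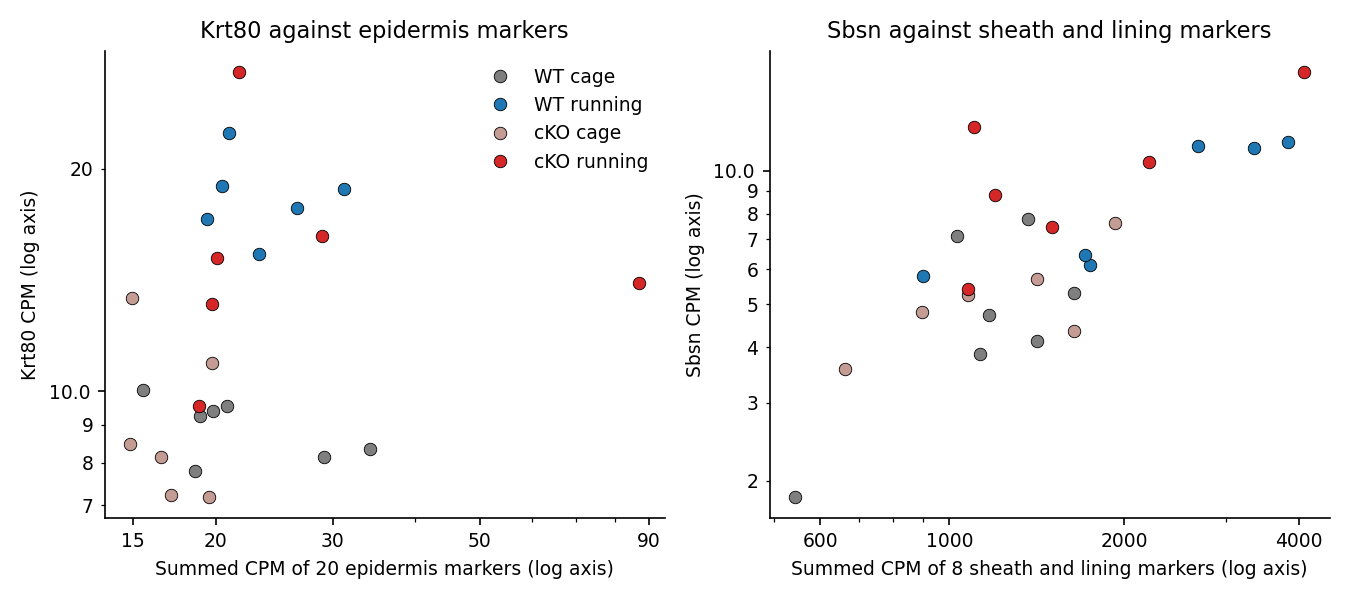
Left, Krt80 CPM against the summed CPM of 20 epidermis markers, and right, Sbsn CPM against that of 8 sheath and lining markers, in 25 libraries coloured by genotype and activity, all axes logarithmic. The library with 87.2 CPM of epidermis markers has 14.03 CPM of Krt80, and the library with the highest sheath sum, 4088 CPM, has the most Sbsn, 16.7 CPM, while cKO running male 2, next in Sbsn at 12.6 CPM, has a sheath sum of 1103 CPM.

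Of the sheath list, 2 of 8 were called higher in runners as the mean of both genotypes and none lower. Among all genes, 0.611% were called higher and 0.814% lower. The list was chosen with earlier results of these data known, and it holds Htra4, one of the 5 genes most like Sbsn. Its calls are therefore a description. Pi16, an extracellular protein of adventitial fibroblasts, rose by 0.81 ± 0.18 (SE, log2, edgeR adjusted p = 0.0233), and Tspan15, a tetraspanin, rose by 0.51 ± 0.12 (adjusted p = 0.0328). Pi16 was called in 41 of 45 alternative fits and Tspan15 in 24. Prg4, the boundary lubricant lubricin, had 0.89 ± 0.28 (adjusted p = 0.119), and Htra4, a serine protease, had 1.38 ± 0.37 (adjusted p = 0.0591). The list's median log2 fold change was 0.46, against 0.01 over all genes. None of the 8 macrophage markers was called, with a median of 0.56. The 7 Schwann cell markers had log2 fold changes above 0 with none called, with a median of 0.95 as the mean of both genotypes. In cKO all 7 were above 0, with a median of 1.82. In WT 5 were above 0 and 2 below, with a median of 0.08. Their sum was 56.0 to 339 CPM in cKO cage and 111 to 1459 CPM in cKO running. In cKO the 15 skeletal muscle markers had values below 0 with none called, with a median of -0.51. In WT 13 of them were above 0 and 2 below, with a median of 0.21. The part of these cells in the values of Krt80 and Sbsn was not tested.

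The wider keratin and epithelial lists were compared for the running mean. The genes called in the first 3 are members chosen from this contrast, so nothing is read from those counts. Of the 9 keratins tested, 1 was called, Krt80, with a median log2 fold change of 0.86. That list includes Krt7 (1.17 ± 0.49, edgeR adjusted p = 0.255), Krt23 (0.69 ± 0.55) and Krt19 (0.56 ± 0.66), the simple epithelial keratins that were tested, of which none passed. In the stratified list, 1 of 5 tested was called, again Krt80, and Krt10, Krt79, Krt2 and Krt14 were not. Of 12 tested genes of the cornified envelope and skin barrier, 1 was called, Sbsn, and the median was 0.46. Krtdap and Dmkn, which lie beside Sbsn in a cluster of secreted epidermal proteins, had 1.18 ± 0.47 (adjusted p = 0.228) and -0.47 ± 0.58 (adjusted p = 0.767). The medians differed by genotype. For running in WT they were -0.31 for the keratins (3 above 0, 6 below) and -0.09 for the envelope and barrier genes (5 above 0, 7 below). In cKO they were 1.48 (8 above 0, 1 below) and 0.98 (11 above 0, 1 below). The cKO runners include cKO running male 2, where Krt10, Krt79, Krt2 and Krt14 were highest.

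Of 17 tested genes of desmosomes and hemidesmosomes, the junctions to which keratins attach, 1 rose and 1 fell, where 1.43% of all genes were called. Cd151, a tetraspanin bound to laminin-binding integrins, rose by 0.34 ± 0.08 (edgeR adjusted p = 0.0383), and Lama3, a laminin chain of the hemidesmosome's substrate, had a log2 fold change of -0.50 ± 0.13 (adjusted p = 0.0474). The call was kept in 21 of 45 alternative fits for Cd151 and in 19 of 45 for Lama3, with the direction the same in all 45. The list's median was 0.16. Of 15 tested filament partners none was called, with a median of 0.10. The same held for 12 epithelial transcription factors, with a median of -0.06, and for 11 other intermediate filament genes, with a median of 0.04. In the comparison of sexes Lama3 was lower in males by a log2 fold change of -0.69 ± 0.13 (adjusted p = 0.00522), and no other gene of these lists was called. None of the listed genes was called in any genotype comparison or in the interaction. These lists too were chosen with earlier results of these data known.

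Among genes with a mean log2 CPM of at least 1, those whose log2 CPM over the 25 libraries was most like that of Krt80 were Plekho1 (r = 0.893), Ndrg4 (0.869), Rgcc (0.858), Pde10a (0.852) and Uchl1 (0.847). Within groups the same 5 had r of 0.563, 0.469, 0.525, 0.474 and 0.476, lower in each case. For Sbsn they were Sulf2 (r = 0.890), a heparan sulphate sulphatase, Crip1 (0.862), Htra4 (0.861), Tnxb (0.830), the matrix protein tenascin X, and Stk32b (0.817), with 0.746 to 0.838 within groups. For Krt14 they were Cntrob (r = 0.817), Stx4a (0.767), Whamm (0.766), Prxl2b (0.764) and Taldo1 (0.761), over a gene with 0 counts in 11 libraries. Krt80 and Sbsn had r = 0.502 with each other. All these are descriptions over libraries that share the design.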

How the data were processed

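RNA was measured in 25 libraries of whole Achilles tendon. Expected counts per gene were deposited, and every value was whole; RSEM 1.3.3, STAR 2.7.8a, cutadapt 2.3 and FastQC 0.11.8 with GRCm38 (mm10) are named, without their roles, per the submitters' processing notes, and the strand and annotation release are not given in the sources used here. FPKM values were deposited in a second table and used for levels between genes and for alternatives.

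Those counts went into edgeR 4.0.16 (R 4.3.3): filterByExpr on the 4 genotype-by-activity groups (19155 genes kept), TMM scaling, quasi-likelihood tests with 4 group means and a sex term, Benjamini-Hochberg adjustment over all genes tested, and calls at an adjusted p under 0.05. CPM are TMM-scaled. The 4 reporter entries were left out. The members, the 7 gene lists and the 10 cell type marker lists were chosen with earlier results of these data known. Named genes are the members, keratins with a mean of at least 0.5 CPM, up to 4 called genes of each list, and the 5 genes most like Krt80, Krt14 and Sbsn (predicted genes left out; prior count 2). Summed epidermis markers were tested with 100000 permutations of the libraries. Gene positions come from GENCODE, and promoters from RefSeq.

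On simulated counts for 19155 genes, the fit found 82 of 100 genes changed 2-fold and 98 of 100 changed 4-fold for the running mean, with 7 false calls. The changed genes were drawn only from genes above a minimum mean CPM. Contrasts within a genotype or an activity, and the interaction, were not simulated. The 46 alternative settings covered scaling, filter, tool (DESeq2 1.42.0, limma 3.58.1), unit, covariates, subsets and each library left out. No 2 libraries were identical.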

Additional observations from a re-analysis of the deposited data

Results flagged for a closer look

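Single libraries far from the rest of their group were found in 11 of 27 combinations of gene and group, by Dixon's ratio of a gap to the range. Chance alone gives about 1 in 20 such findings, and genes near 0 in most libraries meet the ratio easily. cKO running male 2 was the highest of its group for Krt5 (16.84 CPM, others 0 to 0.160), Krt14 (21.03 CPM, others 0 to 0.518), Krt18 (0.994 CPM, others 0 to 0.319) and the summed epidermis markers (87.16 CPM, others 18.84 to 28.91). WT cage female 1 was the highest of its group for Krt5 (3.27 CPM, others 0 to 0.0858), Krt14 (2.97 CPM, others 0 to 0.172) and Krt18 (1.36 CPM, others 0 to 0.221).

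Krt14 also had a far value in WT running female 2 (1.53 CPM, others 0 to 0.471) and in cKO cage male 2 (0.680 CPM, others 0 to 0.102). For Krt8 the values were 0.0429 CPM in WT cage male 2 and 0.0823 CPM in WT running male 2, with 0 in every other library of those groups. Krt80 and Sbsn had no such value in any of the 4 groups.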

How the results depend on the processing

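Krt80 was higher in runners as the mean of both genotypes under all 45 alternatives that gave a value, at log2 fold changes of 0.72 to 1.08. Sbsn was higher in all 45 (0.59 to 0.99). With a term for the prefix of the library names, Krt80 had 0.91 and Sbsn 0.89. The counts of members called in the running contrasts, which the members were chosen from, are given for the record and nothing is read from them. As the mean of both genotypes they were 2, and 3 with no filter (Krt80, Krt14 and Sbsn), 1 under limma on log2(FPKM + 1) or log2(FPKM + 0.1), the muscle, epidermis and mitochondrial rRNA covariates, the replicate block and males only, 0 in females only, and 1 to 2 with a library left out (1 without WT running male 2 or cKO cage male 2). In WT the members called were 1, but 2 with no filter and 0 in females only, in males only and without WT running female 2 and WT running male 3. In cKO they were 0, but 4 with no filter and 1 with DESeq2, limma-voom and the muscle covariate. With no filter 1 member, Krt5, was called for genotype in runners and 2, Krt5 and Krt14, for the interaction.

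All genes called for the running mean numbered 273, and 715 with no filter, 637 with DESeq2, 912 with limma-voom, 155 and 147 with limma on FPKM plus 1 and plus 0.1, 61 with the mitochondrial rRNA covariate, 8 in females only, 102 in males only, 135 without cKO cage female 3 and WT running male 2, and 440 without WT cage female 1 and cKO running male 2. Leaving out a library gave 127 to 568: 568 without WT cage female 1, 159 without WT cage female 2, 169 without WT cage male 1, 127 without WT running male 2, 171 without cKO cage female 1, 165, 144 and 148 without cKO cage males 1, 2 and 3, and 129 without cKO running female 4. The cause was not tested. A fit with a replicate block called 148, with Krt80 at 0.88 and Sbsn at 0.91. Same-numbered libraries did not deviate together (8 of 34 pairs over r = 0.1, median r = -0.03), so the numbers are not taken as pairs.

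Values that were not called changed sign in some alternatives. For genotype at cage activity Krt80 was -0.0533 with limma-voom and -0.0007 and -0.0077 on FPKM (-0.0556 to 0.146 with a library left out), and Sbsn was -0.21 in males only, -0.064 without cKO cage female 3 and WT running male 2 (-0.0843 to 0.237). In runners Krt80 was 0.0399 in females only, and Sbsn -0.0216 with limma-voom and -0.17 in males only. As the genotype mean, Krt80 was 0.047 in females only and Sbsn -0.19 in males only. The interaction of Sbsn was -0.0807 with limma-voom, -0.13 with the epidermis covariate and -0.0213 without WT cage female 1 and cKO running male 2 (-0.0399 to 0.289). Its sex difference was 0.0726 with the mitochondrial rRNA covariate. Summed epidermis markers differed between genotypes by 0.0471 as a mean of logs, between sexes by -0.10 to 0.13 and between runners and cage by 0.22 to 0.45 (adjusted p = 0.0227 at the upper end, without WT cage female 1) with a library left out. The lower end for runners against cage was without cKO running male 2. The 2 alternatives set after the data were seen were the fit without WT cage female 1 and cKO running male 2 and a robust quasi-likelihood fit, tried before the one reported. Krt14's fold changes are left out of these counts, a choice made after seeing that its sign changed under alternatives of every comparison, and it was called with no filter alone. Without the 9 libraries with eGFP, comparisons that need cKO runners gave no value. Depth limits Krt5, Krt14, Krt8 and Krt18, which had 0 counts in 6 to 21 libraries.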

Other observations

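Not all epithelial genes were high in the 2 libraries with skin keratins. Trp63, a transcription factor of basal epidermis, stood at 3.38 CPM in WT cage female 1, the lowest of the 25 libraries, and at 4.00 CPM in cKO running male 2, against a median of 7.72 and a highest level of 11.8 CPM. Krt222, a keratin-like gene, stood at 1.65 and 0.624 CPM in these libraries, the 2 lowest of the 25, against a median of 5.10 CPM. Krt19 was at 0 CPM in cKO running male 2 and at 2.91 and 2.83 CPM in cKO running males 1 and 3, its 2 highest libraries. Cdh1, which encodes E-cadherin, was highest in cKO running female 4, at 11.1 CPM, against a median of 1.03 CPM and 4.02 CPM in cKO running male 2. The 15 skeletal muscle markers summed to 10900 CPM in cKO running male 2 and to 13730 CPM in WT cage female 1, the 2 lowest sums of the 25 libraries.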
